A study of Mus musculus and Homo sapiens with 24 samples.

Results

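The comparison described here is estradiol alone against control in HepG2 cells, a human hepatocellular carcinoma line that secretes many liver plasma proteins. It is made of 3 estrogen libraries and 3 control libraries of RNA-Seq, out of 12 HepG2 libraries and 24 libraries in the whole series, the others being mouse livers. Cells of the estrogen group received 25 nM β-estradiol for 4 h, cells of the control group received neither estradiol nor CoCl2, and a vehicle for the controls is not given in the sources used here. All were seeded in medium with serum and washed before treatment; the study's general cell methods add an overnight period without serum after the wash, a step the labels of these libraries do not mention. The CoCl2 and CoCl2+estrogen groups received 50 µM CoCl2, a salt used to stabilise hypoxia-inducible factors, for the same 4 h and are used only at the end. Genes entered when at least 1 of the 6 libraries had more than 5 counts, which kept 16281 of the 28278 genes listed. The study asked how estrogen and hypoxia act on protein S, the anticoagulant made from PROS1, and this comparison holds estradiol without the hypoxia mimic.

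Estradiol enters cells and binds the nuclear estrogen receptors ERα and ERβ, made from ESR1 and ESR2, which act as transcription factors on target genes with the help of coactivators and corepressors. A separate membrane receptor, GPER1, signals through kinases and reaches the immediate early genes within minutes to hours. In liver, estrogens are known for their effects on plasma proteins, coagulation factors among them, and on lipid metabolism.

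The 6 libraries held between 14593865 and 20725246 counts. Levels are given as CPM, the counts scaled to a common library size with TMM factors, and changes as the fitted log2 ratio of estrogen over control with its standard error (SE) from edgeR's quasi-likelihood test. All 12 hepatocyte or hepatoma markers were detected, at a summed 30009 to 32638 CPM in control and 16711 to 18082 CPM with estrogen, while PTPRC and CD3E of leukocytes, COL1A2, COL3A1 and DCN of fibroblasts and KDR of endothelium were listed at 0. The 3 tested fibroblast markers summed to 26.7 to 30.5 CPM in control and 9.43 to 9.70 CPM with estrogen, and the 4 tested leukocyte markers to 1106 to 1280 and 846 to 947 CPM. Globin RNA varied between libraries, with a summed erythroid list of 37.9 to 979 CPM in the controls and 2.38 to 92.8 CPM in the estrogen libraries, although the erythroid enzyme ALAS2 never exceeded 1 count; leaving these genes and the ribosomal and small noncoding RNA genes out gave 11239 called genes in place of 11217. The share of counts from 7S RNA genes, the RNA of the signal recognition particle and of the 7SK complex, was 0.456 to 0.751% in control and 0.808 to 1.11% with estrogen, without overlap, and RN7SL2 had a log2 change of 1.21; the part of this in other results was not tested beyond the count just given, which leaves these genes out. The study states in general terms that experiments were repeated, but the sources do not say whether these libraries came from separate experiments, so p-values measure only the spread between these libraries. In bulk RNA, a lower share of cells that make an RNA and less of it per cell cannot be told apart.

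The difference between the groups was wide. Of the 16281 genes tested, 11217 (68.9%) passed an adjusted p of 0.05, 5645 (34.7%) of them higher and 5572 (34.2%) lower with estrogen. The 3 estrogen and 3 control values did not overlap for 11745 genes (72.1%). Many of these changes were small, since 3562 called genes had a fitted change under 1.5-fold, but 3032 (18.6%) passed the stricter test of a change beyond 2-fold, 1624 (9.97%) higher and 1408 (8.65%) lower. The median log2 change over all tested genes was -0.004 and the median size was 0.66. Genes called higher made up 36.5% of the CPM in control and 59.3% with estrogen. When libraries were scaled by their totals alone, the median of all genes moved by -0.13 on the log2 scale and the share of calls that were higher went from 50.3% to 43.0%, so changes below are relative to the TMM scale. A total of 789 genes passed the count filter only through the control group and 841 only through the estrogen group; 309 of the former were called lower and 545 of the latter higher, which the filter favours.

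**Figure D1:**
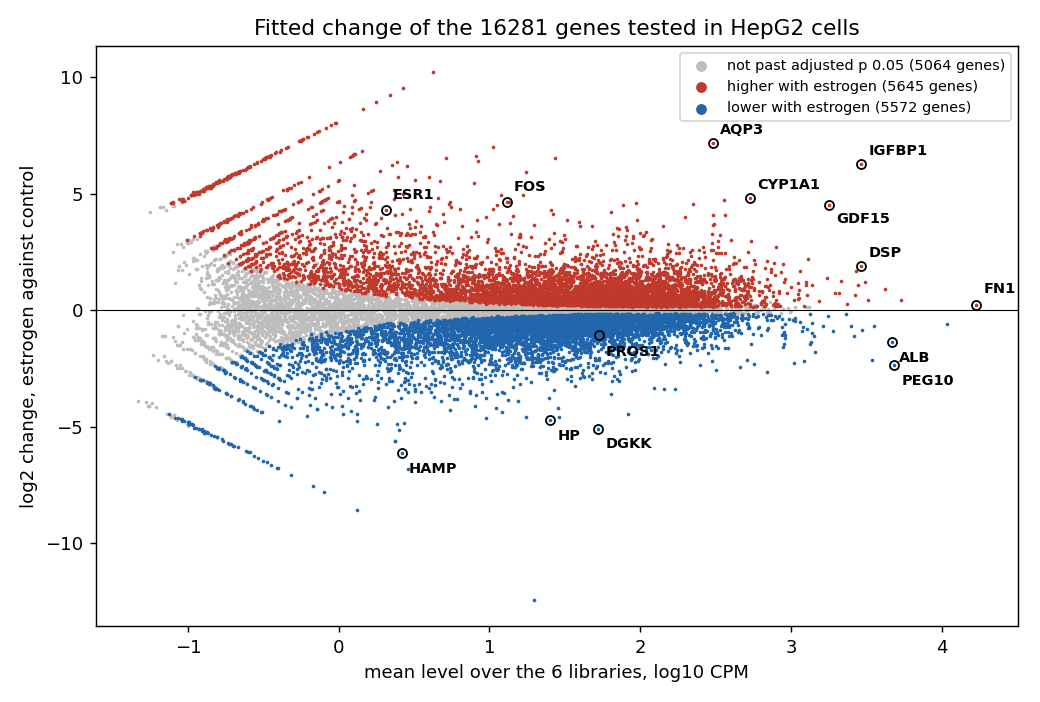
Each point is 1 of the 16281 genes tested; the x axis is the mean level over the 6 libraries (log10 CPM) and the y axis the fitted log2 change, estrogen against control, with called genes in red (5645 higher) and blue (5572 lower). Streaks at the left are genes with a few counts or none in 1 of the groups; AQP3, IGFBP1, CYP1A1 and GDF15 stand far above 0 at high levels, and PEG10 and ALB fell among the most abundant genes.

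The receptors were looked at first. ESR1 had 2, 4 and 5 counts in the control libraries and 54, 49 and 74 in the estrogen libraries, which is 0.194 ± 0.0931 CPM against 3.91 ± 1.11 CPM (SD, n = 3). All 3 estrogen libraries lay above all controls, and the log2 change was 4.30 (SE 0.39, adjusted p = 1.06e-07), although the level stayed low in both groups. ESR2 had 10, 2 and 5 counts in control and 2, 5 and 0 with estrogen, too few to show a difference (log2 change -0.93, SE 0.93, adjusted p = 0.39). GPER1, the membrane receptor, measured 30.5, 35.2 and 37.6 CPM in control and 28.6, 34.6 and 35.0 CPM with estrogen, and the overlapping groups did not pass the test (log2 change -0.08, SE 0.10, adjusted p = 0.505).

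Among 12 tested receptors and coregulators, 8 were higher and 2 lower, or 66.7% and 16.7% against 34.7% and 34.2% of all genes. Their median log2 change was 0.36 against -0.004 over all genes. ESRRA, an orphan receptor that drives mitochondrial genes, rose from 22.9 ± 1.16 to 57.9 ± 6.87 CPM (log2 change 1.34). The coactivator NCOA1 rose by less (0.83). The pioneer factor FOXA1, which opens chromatin for the receptor, fell by 0.68 on the log2 scale and the coactivator NCOA3 by 0.30.

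Genes commonly listed as estrogen receptor targets moved both ways. Of 21 tested, 10 were higher and 6 lower (median log2 change 0.26). The 76.2% called were near the 68.9% over all genes, with 47.6% higher against 34.7% and 28.6% lower against 34.2%. Past the 2-fold test were 7 higher and 1 lower, where the shares of all genes were 9.97% and 8.65%. Among called members with a mean of at least 1 CPM, FOS, AREG, EGR3 (log2 change 2.51) and STC2 rose most. Which pathways raised them was not tested. FOS, part of the AP-1 factor, went from 0.948, 1.12 and 0.931 CPM to 27.3, 23.3 and 24.3 CPM. AREG, a ligand of the EGF receptor, went from 76.0, 62.5 and 74.4 CPM to 524, 514 and 539 CPM (log2 change 2.89, SE 0.08). MYC rose from 232 ± 11.1 to 921 ± 19.1 CPM (1.99), and the secreted glycoprotein gene STC2 rose by 2.01. The opposite held for GREB1, a cofactor of the receptor, with 189, 203 and 190 CPM in control and 124, 134 and 124 CPM with estrogen (log2 change -0.61, SE 0.06, adjusted p = 4.06e-07). PDZK1, a scaffold protein of membrane transporters, fell from 35.9 ± 2.64 to 8.04 ± 0.535 CPM (-2.16). TFF1, the classic breast cancer target, was at 0.268 ± 0.134 and 0.315 ± 0.162 CPM in the 2 groups (adjusted p = 0.847), and PGR reached at most 4 counts and was not tested.

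PROS1, the gene of protein S, was lower in every estrogen library. It measured 74.4, 76.0 and 64.0 CPM in control and 34.7, 32.9 and 35.9 CPM with estrogen, so the groups were well apart. The mean went from 71.5 ± 6.51 to 34.5 ± 1.53 CPM (SD, n = 3), a log2 change of -1.05 (SE 0.08, 95% confidence interval -1.22 to -0.88, adjusted p = 1.18e-08). The interval includes a 2-fold fall, and PROS1 did not pass the test of a change beyond 2-fold (adjusted p = 0.38).

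Genes on the natural anticoagulant list were mostly lower. Of 12 tested members, 9 fell, PROS1 among them, and 2 rose. The median log2 change was -0.87, and 4 passed the 2-fold test downwards. The share lower was 75% against 34.2% of all genes. The list includes an inhibitor of protein C and the chains of a carrier of protein S, so its counts are not of anticoagulants alone. SERPINA5, the protein C inhibitor, went from 376, 391 and 397 CPM to 126, 131 and 117 CPM (log2 change -1.64, SE 0.06). Antithrombin, from SERPINC1, went from 14 ± 0.231 to 4.77 ± 0.749 CPM (-1.55), and the factor X inhibitor SERPINA10 fell by 1.53 on the log2 scale. C4BPA, the α chain of the C4b-binding protein that carries protein S in plasma, fell by the same 1.53, while its β chain C4BPB was at 26.5 and 30.1 CPM and did not pass the test. PROC, the gene of protein C whose cofactor is protein S, was at 57.9 and 50.5 CPM (log2 change -0.20), a fall whose call was lost under 9 of the alternatives tried, leaving out control library A or C or estrogen library A or C among them. The 2 that rose were the broad protease inhibitor A2M, from 2053 ± 140 to 3255 ± 177 CPM (0.66), and tissue factor pathway inhibitor TFPI, from 487 ± 50.1 to 586 ± 27.4 CPM (0.27); the call of TFPI was lost with library totals alone as the scale. Thrombomodulin (THBD) had at most 1 count.

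Among procoagulant genes 9 of 16 were lower and 2 higher, with a median log2 change of -0.62. The 68.8% called were near the 68.9% over all genes, and 56.2% were lower against 34.2% of all genes. The 3 fibrinogen chains fell furthest among those at high level. FGA measured 902, 959 and 968 CPM in control and 194, 186 and 180 CPM with estrogen (log2 change -2.34, SE 0.06, adjusted p = 1.23e-13). FGG fell by 2.44 and FGB by 1.48 on the log2 scale, and KNG1, the kininogen of the contact system, fell from 1.81 to 0.285 CPM (-2.64, and -3.47 without estrogen library C). F7 (-1.01), F10 (-0.58) and prothrombin F2 (-0.41) fell less, as did GGCX (-0.90) and VKORC1 (-0.66), the enzymes that γ-carboxylate protein S and other vitamin K-dependent factors and recycle vitamin K. F11 rose from 27.8 ± 1.27 to 43.6 ± 1.87 CPM (0.65) and the initiator F3, tissue factor, from 12.8 ± 0.968 to 19.9 ± 0.961 CPM (0.64). F5 was at 176 and 189 CPM and did not pass the test.

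Fibrinolysis genes were split, 5 higher and 5 lower of 10, so 50% each way against 34.7% and 34.2% of all genes. PLAUR, the urokinase receptor, went from 2.79, 2.88 and 3.14 CPM to 10.8, 10.1 and 8.37 CPM (log2 change 1.73, SE 0.16, adjusted p = 8.85e-08). The protease nexin SERPINE2 (1.53) also rose, whereas CPB2, which makes the fibrinolysis inhibitor TAFI, fell by 1.54, ANXA2 by 1.5 and the plasmin inhibitor SERPINF2 by 1.19. Complement genes were mostly lower, 17 of 22, with 2 higher and a median of -0.66. That is 77.3% lower against 34.2% of all genes. The terminal component C8B (-2.92, and -3.53 without estrogen library C), the classical protease C1S (-2.16), C8A (-1.84) and the regulator CFI (-1.78) fell most. CD55, a membrane protein that dissolves complement convertases, was an exception, at 13.7, 11.5 and 10.9 CPM in control and 131, 125 and 142 CPM with estrogen (log2 change 3.46, SE 0.09).

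**Figure D2:**
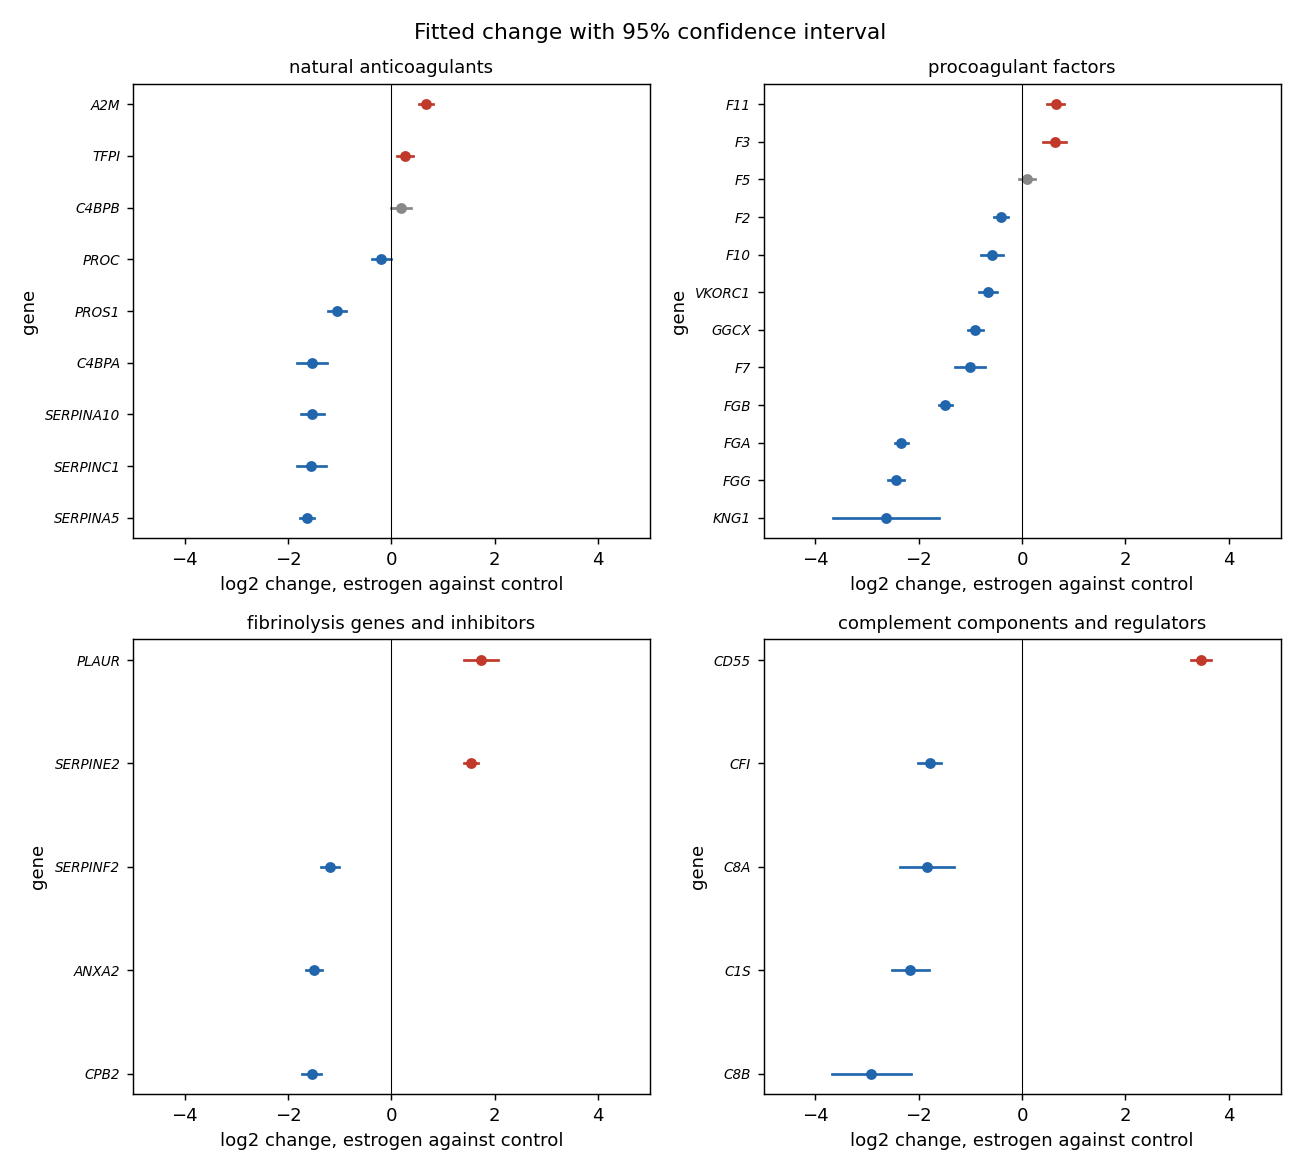
Fitted log2 change, estrogen against control, with its 95% confidence interval for the members named in the text of the 4 plasma cascade lists; red and blue mark members that passed an adjusted p of 0.05 upwards and downwards, grey those that did not. PROS1 sits at -1.05 in the middle of the anticoagulants, the 3 fibrinogen chains lie between -1.48 and -2.44, and CD55 at 3.46 is the farthest to the right.

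The largest rises began from a wide range of levels in control, including 0 counts. AQP3, a channel for water and glycerol, had 4.90, 3.30 and 4.54 CPM in control and 623, 618 and 562 CPM with estrogen, a log2 change of 7.16 (SE 0.11, adjusted p = 9.56e-16). IGFBP1, a liver-secreted binding protein of insulin-like growth factors, reached 6013, 6023 and 5248 CPM from 72.3, 68.6 and 85.9 CPM (log2 change 6.25, SE 0.10). RAMP1, a subunit of the CGRP receptor, rose by 6.63, PTHLH, the parathyroid hormone-related protein, by 6.40, and SPTSSB, a subunit of serine palmitoyltransferase, by 5.25. TINCR, a noncoding or micropeptide transcript of differentiating epithelium, went from 1, 3 and 2 counts to 198, 147 and 129 counts, a ratio of 99.1 with a counting interval of 45.2 to 271. PELI2, a ubiquitin ligase of Toll-like receptor signalling, was at 0 counts in all controls and at 102, 59 and 85 counts with estrogen, at least 33.7-fold higher when 3 counts per control library are allowed. P2RY11, a purinergic receptor, was likewise at 0 and then at 191, 119 and 89 counts (at least 54.1-fold higher), but it overlaps a readthrough gene and its counts are uncertain.

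At the other end, DGKK, a diacylglycerol kinase, fell from 99.2, 107 and 100 CPM to 2.64, 2.59 and 3.56 CPM (log2 change -5.13, SE 0.10, adjusted p = 1.79e-14). HP, the haemoglobin-binding plasma protein haptoglobin, fell from 45, 50.7 and 50.4 CPM to 1.85, 2.09 and 1.54 CPM (-4.73), and its paralog HPR, which shares sequence with it, by 4.31. The organic anion transporter SLC22A7 fell by 5.15, the bile acid reductase AKR1D1 by 4.61 and the tubulin gene TUBA1A by 4.37. HAMP, the iron hormone hepcidin, dropped from 87, 90 and 116 counts to 0, 1 and 2 counts, a ratio of control over estrogen of 77.9 with a counting interval of 26.4 to 380. GSTA1, a glutathione transferase, dropped from 127, 112 and 90 counts to 0, 2 and 0 counts, a ratio of 131 with a counting interval of 36.0 to 1088; reads of the near-identical GSTA2 could be shared with it. These intervals cover counting error only.

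Among the genes with the most reads, PEG10, an imprinted retrotransposon-derived gene, went from 8041, 8576 and 7743 CPM to 1538, 1532 and 1645 CPM (log2 change -2.37, SE 0.06). DSP, desmoplakin of the desmosome, rose from 1239 ± 35.0 to 4614 ± 293 CPM (1.90) and the spectrin gene SPTBN1 from 1771 ± 27.6 to 3790 ± 195 CPM (1.10). FN1, fibronectin, rose by 0.21 (0.08 and not past the test with library totals alone), and the translation factors EEF1A1 and EEF2 rose by 0.44 and 0.42. ACTB, the cytoskeletal actin often taken as a reference, fell from 3586 ± 247 to 1636 ± 52.3 CPM (-1.13). GAPDH, also a common reference, went from 1581, 1537 and 1736 CPM to 932, 943 and 896 CPM (-0.81, SE 0.06, adjusted p = 1.11e-08). MIR22HG, the host transcript of miR-22, went from 8.85 ± 0.732 to 51.3 ± 1.63 CPM (2.53).

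**Figure D3:**
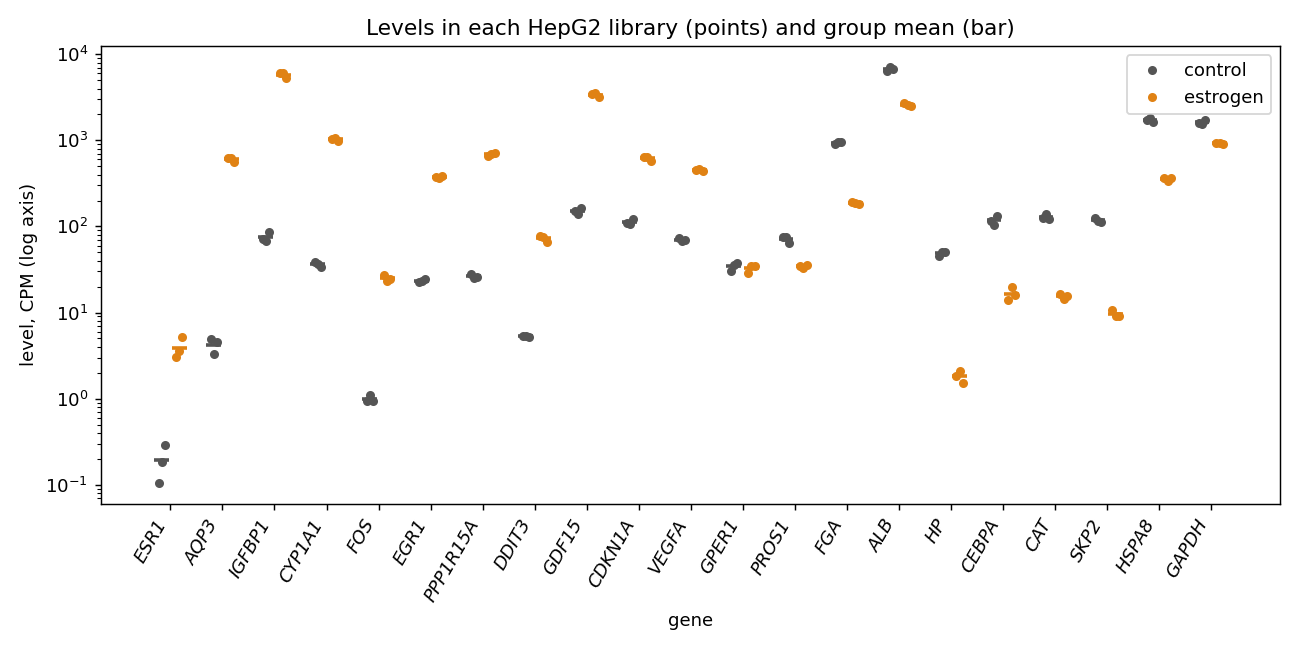
Level in each library (points, CPM on a log axis) and group mean (bars) for 21 genes, control in grey and estrogen in orange. The 3 libraries of a group lie close together; GPER1 overlaps between groups, PROS1 sits at 64.0 to 76.0 CPM in control and 32.9 to 35.9 CPM with estrogen, and AQP3, IGFBP1 and CYP1A1 are far higher with estrogen in every library.

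Immediate early genes are switched on by kinase signalling without new protein synthesis, and they rose together. Of 31 tested, 30 were higher, 96.8% against 34.7% of all genes. The 2-fold test was passed by 28, and the median log2 change was 2.68. EGR1, a zinc finger factor induced by growth factors, had 22.6, 23.1 and 24.8 CPM in control and 374, 365 and 381 CPM with estrogen (log2 change 3.99, SE 0.07, adjusted p = 1.95e-15). The AP-1 subunits FOSB (4.92), FOS (4.63), JUNB (2.18) and JUN (1.68) rose, as did the phosphatases DUSP5 (4.51) and DUSP6 (3.22), which switch MAP kinases off and are themselves induced by them. DUSP6 was at 66.5, 66.9 and 64.4 CPM in control and at 617, 604 and 619 CPM with estrogen. The member that did not pass, KLF2, was at 0.204 and 0.573 CPM (log2 change 1.43), and it passed without control library A (2.09, adjusted p = 0.0354 by edgeR). JUND and SRF rose least among the called members, by 0.58 and 0.44.

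Genes of the integrated stress response, in which phosphorylation of eIF2α raises translation of ATF4, were higher in 27 of 30 cases and lower in 2. So 90% were higher against 34.7% of all genes, with 20 past the 2-fold test and a median of 1.34. PPP1R15A, the phosphatase subunit GADD34 that reverses the eIF2α mark, went from 28.4, 25.3 and 25.7 CPM to 657, 704 and 715 CPM (log2 change 4.71, SE 0.07). DDIT3, the factor CHOP, went from 5.30 ± 0.108 to 73.1 ± 5.62 CPM (3.79), the pseudokinase TRIB3 from 75.3 ± 6.11 to 579 ± 54.1 CPM (2.95) and ATF4 itself from 275 ± 4.82 to 680 ± 5.0 CPM (1.31). Asparagine synthetase ASNS (1.80) and the cystine transporter SLC7A11 (1.44) rose, whereas PSPH of serine synthesis fell by 0.72. The endoplasmic reticulum list, which holds stress sensors beside folding chaperones, was split, with 8 of 20 higher and 9 lower. These shares of 40% and 45% stand against 34.7% and 34.2% of all genes. ERN1, the stress sensor IRE1α, was at 17.1, 18.9 and 18.6 CPM in control and 434, 437 and 420 CPM with estrogen (4.56), and DNAJB9 rose by 2.13. The lumenal chaperone HSPA5, known as BiP, went from 1178 ± 21 to 610 ± 25.5 CPM (-0.95), and CRELD2, PDIA4 and CALR fell by 2.34, 2.17 and 1.44.

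Among p53 targets, 22 of 32 were higher and 6 lower, with 12 and 1 past the 2-fold test and a median of 0.90. The share higher was 68.8% against 34.7% of all genes, and 18.8% were lower against 34.2%. GDF15, a secreted stress cytokine, went from 150, 139 and 162 CPM to 3474, 3515 and 3188 CPM (log2 change 4.50, SE 0.07). The cell cycle inhibitor CDKN1A, p21, went from 113 ± 7.32 to 621 ± 33.0 CPM (2.46), and GADD45A (3.22), PLK2 (3.17) and the death gene PMAIP1 (3.13) rose too. The target FDXR of mitochondrial electron transfer fell by 1.13. Several of the genes that rose, SESN2 for example, stand on the stress list as well. MDM2, a ubiquitin ligase, rose by 0.74.

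The apoptosis list had 18 of 25 members higher, 72% against 34.7% of all genes, and 3 lower (median 0.77). Both sides of the balance were among them. The death activators BMF, from 43.7 ± 2.01 to 307 ± 14.2 CPM (2.81), and BBC3 (2.79) rose, and so did the protectors BIRC3 (1.5) and MCL1 (1.29). Caspase 9 (CASP9) fell by 0.71 and caspase 8 (CASP8) by 0.33. Of 17 tested NF-kB and cytokine genes, 13 (76.5%) were higher and 2 (11.8%) lower, against 34.7% and 34.2% of all genes. The list median was 1.02. SOCS3, the feedback inhibitor of cytokine receptors, rose from 1.89 ± 0.421 to 25.4 ± 1.82 CPM (3.72), LIF from 20.9 ± 2.82 to 155 ± 7.33 CPM (2.89) and the chemokine CCL20 by 2.56. The inhibitor NFKBIA, an early NF-kB target, fell by 0.23, and TNF and IL6 had at most 5 counts and 1 count.

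Most genes of secreted liver proteins were lower. Of 31 tested secreted plasma proteins, 25 were lower and 1 was higher, so 80.6% were lower against 34.2% of all genes. Past the 2-fold test were 16, all lower, and the list median was -1.12. ALB, serum albumin, went from 6441, 7168 and 6673 CPM to 2688, 2578 and 2500 CPM (log2 change -1.39, SE 0.06, adjusted p = 1.52e-11). The haem carrier HPX fell by 3.90 and the lipoprotein component APOC3 by 3.18, while APOB (-0.59), SERPINA1 (-0.84) and AFP (-1.12) fell less. AMBP, which encodes α1-microglobulin and bikunin, was the member that rose (0.32). Sex hormone-binding globulin, SHBG, was low in both groups, at 1.93 and 1.31 CPM, and did not pass.

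The transcription factors that keep up the hepatocyte programme were divided, with 11 of 23 higher and 11 lower and a median of 0.03. So 95.7% were called against 68.9% of all genes, 47.8% in each direction against 34.7% and 34.2%. Past the 2-fold test were 6 higher and 2 lower. CEBPA fell from 116, 104 and 133 CPM to 14.1, 19.7 and 16 CPM (log2 change -2.83, SE 0.12), and its relative CEBPB, an acute-phase and stress factor, rose from 73.7 to 307 CPM (2.06). ONECUT1 fell by 1.47, the bile acid receptor NR1H4 by 1.20 and HNF4A from 547 ± 10.9 to 346 ± 23.5 CPM (-0.66). FOXA2 rose from 47.7 ± 3.09 to 174 ± 5.97 CPM (1.87) and NR5A2 by 1.67. So paralogs of the same family went opposite ways, FOXA1 down and FOXA2 and FOXA3 up, CEBPA down and CEBPB up.

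Metabolic genes were mostly lower. In fatty acid oxidation 20 of 31 fell, 64.5% against 34.2% of all genes, and 5 rose (median -0.82). Catalase (CAT), the peroxisomal enzyme that removes hydrogen peroxide, went from 124, 138 and 123 CPM to 16.2, 14.5 and 15.6 CPM (log2 change -3.05, SE 0.08), and EHHADH of the peroxisomal pathway from 67.0 ± 5.60 to 7.04 ± 0.268 CPM (-3.25). The acyl-CoA synthetase ACSL1 rose by 1.84 and CPT1A, which admits long-chain fatty acids to mitochondria, by 0.39. In cholesterol synthesis and uptake 21 of 24 fell, 87.5% against 34.2% of all genes, and 1 rose (median -0.80). The sterol reductase TM7SF2 fell by 2.45, the thiolase ACAT2 by 2.12 and the decarboxylase MVD of the mevalonate pathway by 1.86 on the log2 scale.

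Glycolysis and glucose output had 15 of 26 members lower and 3 higher (median -0.38). The 69.2% called were near the 68.9% over all genes, with 57.7% lower against 34.2%. LDHA, which makes lactate, went from 1315 ± 66.0 to 443 ± 29.8 CPM (-1.57), GPI fell by 1.69 and the liver pyruvate kinase PKLR by 2.52, while hexokinase HK2 (0.64) and the transporter SLC2A1 (0.44) rose. In the methionine and urea cycles 15 of 24 fell, 62.5% against 34.2% of all genes, and 7 rose (median -0.74). MAT1A, which makes S-adenosylmethionine in liver, went from 116 ± 3.56 to 14.1 ± 0.941 CPM (-3.04), and glutamate dehydrogenase GLUD1 fell by 1.83, whereas GOT1 rose by 1.38. GNMT had 20, 20 and 16 counts in control and 0 in every estrogen library, at least 4.90-fold lower.

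Genes of drug and steroid metabolism held both extremes, with 8 of 33 higher, 15 lower and a median of -0.36. The 69.7% called were near the 68.9% over all genes, 24.2% higher against 34.7% and 45.5% lower against 34.2%, and 11 members passed the count filter through 1 group only. CYP1A1, a target of the aryl hydrocarbon receptor that oxidises polycyclic hydrocarbons and estradiol, went from 38.7, 37.1 and 34.2 CPM to 1036, 1071 and 970 CPM (log2 change 4.80, SE 0.07, adjusted p = 9.56e-16). CYP1B1, an estradiol 4-hydroxylase, went from 0.152 ± 0.158 to 21.1 ± 1.88 CPM (7.01); with at most 6 counts in a control library this value rests on few reads, and it was 7.95 without control library A. UGT1A1, which glucuronidates bilirubin and estradiol, went from 0.433 ± 0.127 to 10.3 ± 0.602 CPM (4.55). HSD17B2, which oxidises estradiol to estrone, rose by 2.13. The sulfotransferases fell, SULT2A1 from 48.9 ± 3.68 to 9.59 ± 1.97 CPM (-2.36), SULT1A1 by 2.53 and the estrogen sulfotransferase SULT1E1 by 1.13, as did the glucuronosyltransferase UGT2B10 (-2.97). Aromatase, CYP19A1, went from 4.73 to 2.66 CPM (-0.84). Members at 0 in all libraries of a group left the list medians as they were when set to their bounds.

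Of 7 tested metallothionein and zinc export genes, 5 metallothioneins fell, 71.4% against 34.2% of all genes (median of the list -1.69). MT1G fell most, from 10.1 ± 1.12 to 0.795 ± 0.224 CPM (-3.67), and the zinc exporter SLC30A1 rose from 127 ± 3.93 to 333 ± 6.89 CPM (1.39). The metallothionein genes are near-identical copies, so their split of reads is uncertain. NRF2 targets, which respond to oxidants, were 6 higher and 13 lower of 24 (median -0.26). That is 25% and 54.2%, against 34.7% and 34.2% of all genes. TALDO1 of the pentose phosphate pathway fell by 1.52 and HMOX1 by 1.00, while GCLC of glutathione synthesis rose by 1.05.

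Most cell cycle genes were lower. Of 40 G1/S and replication genes, 35 were lower and 1 higher, with 20 past the 2-fold test and a median of -1.14. The share lower was 87.5% against 34.2% of all genes. SKP2, the ligase subunit that degrades p27, went from 125, 115 and 113 CPM to 10.6, 9.0 and 9.21 CPM (log2 change -3.61, SE 0.09, adjusted p = 6.44e-14). Cyclin E1 (CCNE1) went from 40.7 ± 0.372 to 6.50 ± 0.556 CPM (-2.65), and the helicase subunit MCM6 fell by 2.36. Cyclin D1 (CCND1), a known estrogen target in breast cells, was the one that rose, from 647, 624 and 582 CPM to 745, 727 and 743 CPM (0.26, SE 0.06), a call lost with library totals alone (0.13). Of 33 G2/M genes, 26 were lower, 78.8% against 34.2% of all genes, and 1 higher. Downwards, 2 passed the 2-fold test, and the median was -0.57. PLK1 went from 235 ± 2.69 to 77.2 ± 1.72 CPM (-1.61) and KIF20A fell by 1.43, while ECT2, an exchange factor of cytokinesis, rose from 103 ± 9.13 to 353 ± 12.8 CPM (1.77). The proliferation marker MKI67 fell by 0.57.

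Replication-dependent histone genes, whose RNAs are made in S phase and lack poly(A) tails, were lower in 43 of 48 cases and higher in 2 (median -1.26). So 89.6% were lower against 34.2% of all genes. H2BC14 went from 47.9, 45 and 74.8 CPM to 2.02, 2.30 and 2.58 CPM (-4.60, SE 0.21), and the linker histone H1-5 fell by 2.89. H3C6 (1.18) and H4C3 (0.73) rose. Histone genes are near-identical copies, and the spread of their summed level was wider in control, 3713 to 5158 CPM, than with estrogen, 2215 to 2364 CPM.

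**Figure D4:**
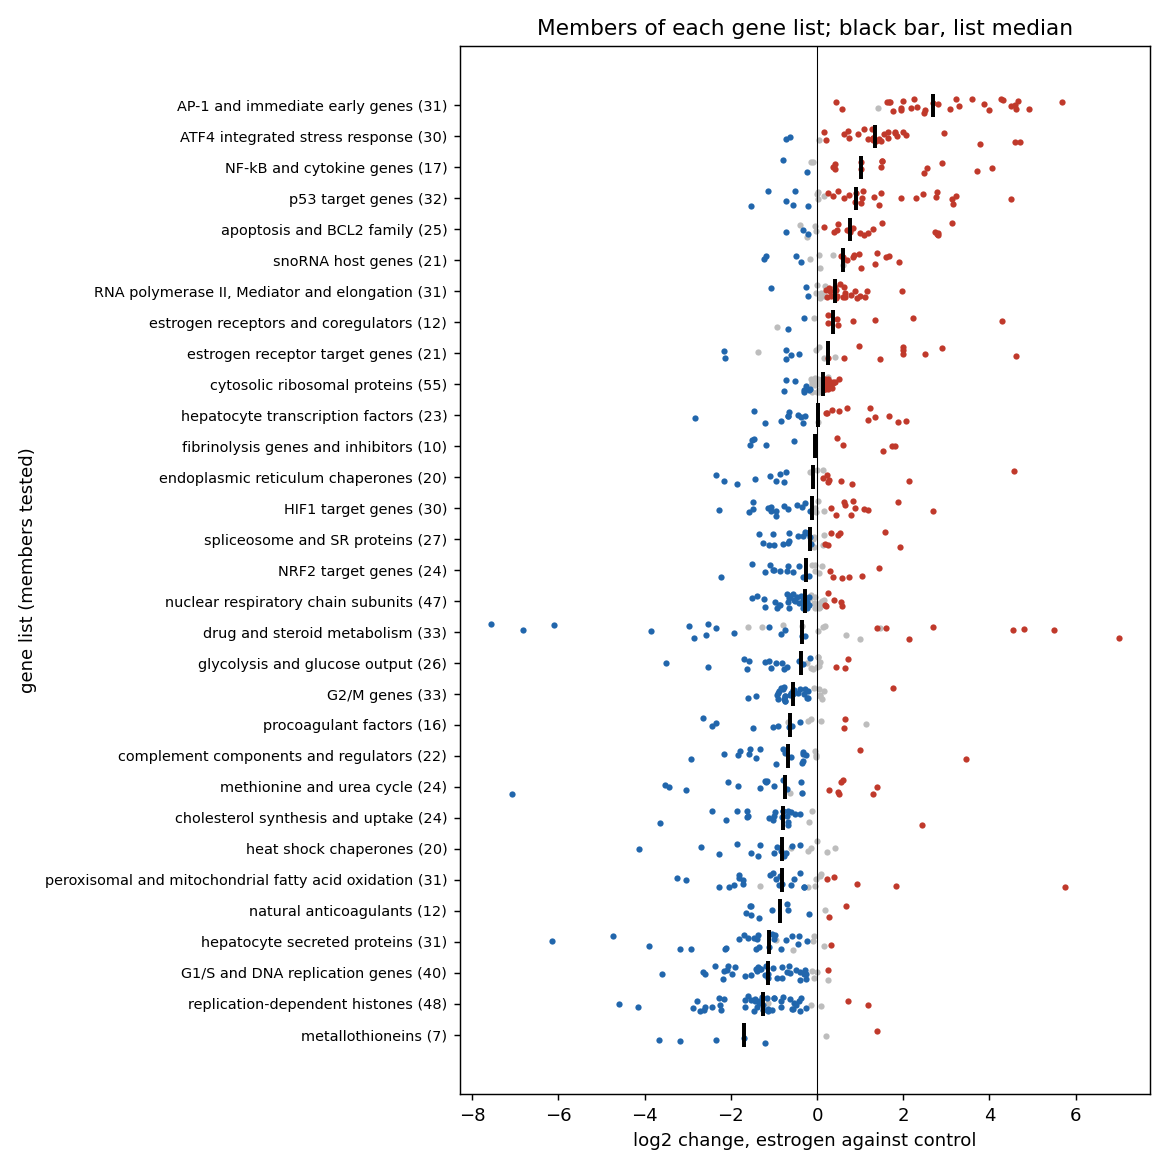
Each row is a gene list with its number of tested members, each point a member's fitted log2 change, estrogen against control (red higher, blue lower, grey not past an adjusted p of 0.05), and each black bar the list median; points are jittered vertically. Immediate early genes (median 2.68) and stress response genes (1.34) lie to the right, and histones (-1.26), replication genes (-1.14) and secreted liver proteins (-1.12) to the left of 0, near which the median of all genes lies.

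Housekeeping groups moved by small amounts or split. Of 55 cytosolic ribosomal protein genes, 23 were higher and 8 lower, with log2 changes from -0.78 to 0.51 and a median of 0.13. The 56.4% called were below the 68.9% over all genes, with 41.8% higher against 34.7% and 14.5% lower against 34.2%. The number called higher was 5 when libraries were scaled by their totals alone, 12 under upper-quartile scaling and 35 without control library C. RPL3 went from 668, 665 and 653 CPM to 389, 408 and 362 CPM (-0.78, SE 0.06) and RPL12 fell by 0.72. Nuclear subunits of the respiratory chain were lower in 29 of 47 cases and higher in 6 (median -0.28). The 74.5% called were near the 68.9% over all genes, and 61.7% were lower against 34.2%. The ATP synthase subunit ATP5MC1 (-1.52) fell most, and NDUFS4 (0.58) and NDUFV2 (0.57) rose most.

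Cytosolic heat shock chaperones fell in 14 of 20 cases and the other 6 did not pass the test (median -0.80). The 70% called were near the 68.9% over all genes, but all of them were lower, against 34.2% of all genes. HSPA8, the constitutive HSC70, went from 1709, 1830 and 1632 CPM to 364, 338 and 370 CPM (log2 change -2.27, SE 0.06), the small chaperone HSPB1 fell by 2.69, and the inducible HSPA1A and HSPA1B, which are near-identical copies, fell by 1.85 and 1.53. HSP90AA1, which holds steroid receptors ready for ligand, fell by 1.37.

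Genes of the transcription machinery were higher in 21 of 31 cases and lower in 3 (median 0.42), which is 67.7% higher against 34.7% of all genes. The elongation factor ELL rose from 16.4 ± 2.42 to 64.3 ± 8.15 CPM (1.97), AFF4, the scaffold of the super elongation complex, by 1.17, while POLR2E fell by 1.07. Among 27 splicing genes, 7 (25.9%) were higher and 15 (55.6%) lower, against 34.7% and 34.2% of all genes (median -0.17). The kinase CLK1, which phosphorylates SR proteins, went from 37.1 ± 1.56 to 141 ± 5.01 CPM (1.92) and CLK4 rose by 1.57, while SRSF2, SRSF7 and SRSF3, which are SR proteins, fell by 1.34, 1.26 and 1.12. Host genes of small nucleolar RNAs, many of which are degraded during translation, were higher in 12 of 21 cases and lower in 4 (median 0.60). The 76.2% called were near the 68.9% over all genes, and 57.1% were higher against 34.7%. GAS5 rose from 9.89 ± 1.27 to 36.8 ± 4.00 CPM (1.90) and ZFAS1 by 1.60, and SNHG14 fell by 1.22.

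HIF1A, the oxygen-regulated subunit that the study follows, went from 384, 434 and 348 CPM in control to 301, 282 and 310 CPM with estrogen, a log2 change of -0.39 (SE 0.07, adjusted p = 0.000279). HIF1 target genes went both ways without CoCl2, 11 of 30 higher and 15 lower (median -0.11). The 36.7% higher were near the 34.7% over all genes, and 50% were lower against 34.2%. VEGFA, the vascular growth factor, went from 73.8, 67.9 and 69.3 CPM to 449, 470 and 444 CPM (2.69, SE 0.06), and the vasodilator ADM rose by 1.87. Carbonic anhydrase CA9 went from 6.87 ± 1.60 to 1.42 ± 0.580 CPM (-2.28), and the collagen modifiers LOX and P4HA1 fell by 1.49 each.

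The estradiol difference was then set beside that in cells that also received CoCl2, where 3 CoCl2+estrogen libraries were compared with 3 CoCl2 libraries that share no sample with the comparison above. In CoCl2, 9860 of 16200 genes (60.9%) passed the test, 4871 (30.1%) higher and 4989 (30.8%) lower, and 2002 (12.4%) passed the 2-fold test. Over 15800 genes tested in both, the log2 changes correlated with Pearson's r = 0.888 (rank correlation 0.895), which is a correlation across genes within 12 libraries and not across replicates. Of the genes called in both, 8853 had the same sign and 38 opposite signs, and these 8891 shared calls were 80.5% of the calls without CoCl2 and 91.0% of those with it. All 1786 genes past 2-fold in both comparisons moved the same way.

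PROS1 was among the genes whose estradiol difference did not pass the test of a change with CoCl2. It went from 69.1 ± 4.23 to 31.9 ± 1.91 CPM in CoCl2 (log2 change -1.12, SE 0.09), and the interaction was -0.04 (SE 0.12, adjusted p = 0.908). AQP3 rose by 6.74 with CoCl2 and 7.16 without it, and FGA fell by 2.40 and 2.34. For these the interaction did not pass either, at adjusted p = 0.223 and 0.898.

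The interaction passed for 967 of 16681 genes (5.8%), 350 positive and 617 negative, and 3072 had an unadjusted p under 0.05. With library totals alone as the scale the split was 520 positive and 488 negative. Of the 458 genes past 2-fold without CoCl2 whose interaction passed, 440 had the smaller change with CoCl2 and 18 the larger one. That choice of genes favours a smaller change with CoCl2. Of the 241 genes past 2-fold with CoCl2 whose interaction passed, a choice that favours the opposite, 191 had the smaller change with CoCl2 and 50 the larger one. For FOS the log2 change was 4.63 without and 1.94 with CoCl2, an interaction of -2.68 (SE 0.28, adjusted p = 1.30e-05). ESR1 rose by 4.30 without and by 1.91 with CoCl2 (interaction -2.36, SE 0.55, adjusted p = 0.0149), at 0.499 CPM in CoCl2 and 1.89 CPM in CoCl2+estrogen. Stress genes followed, with PPP1R15A at 4.71 and 3.14 (interaction -1.54, SE 0.12) and DDIT3 at 3.79 and 2.04 (-1.72, SE 0.17).

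By list, the interaction passed for 20 of 31 immediate early genes, 18 of 32 p53 targets, 14 of 30 HIF1 targets, 13 of 30 stress response genes and 23 of 47 histone genes tested in both. Of the 81 anticoagulant, procoagulant, complement and secreted plasma protein genes, edgeR called 0 for the interaction and 6 had an unadjusted p under 0.05, and DESeq2 called 0 as well; these lists had medians of -0.78, -0.76, -0.72 and -1.11 with CoCl2. MDM2 changed direction, with a rise of 0.74 without CoCl2 and a log2 change of -0.27 with it (adjusted p = 0.00335; interaction -0.99, SE 0.10, adjusted p = 9.87e-06). CYP1A1 rose by 4.80 without and 3.25 with CoCl2 (interaction -1.53, SE 0.11) and IGFBP1 by 6.25 and 4.70 (-1.52, SE 0.13). HSPA8 fell by 2.27 without and by 1.36 with CoCl2 (interaction 0.93, SE 0.12). CoCl2 library B held 4.30% of ribosomal RNA genes against 0.884 to 1.63% in the other 11 libraries; without it the interaction passed for 1044 genes.

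**Figure D5:**
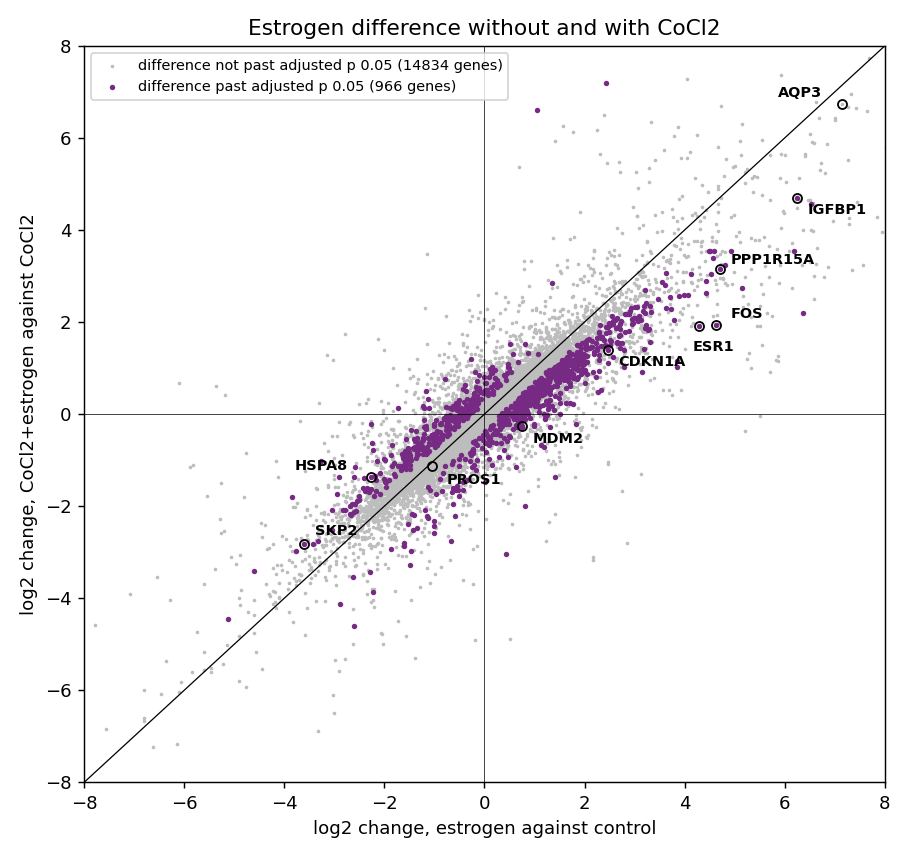
Each point is a gene tested in both comparisons; the x axis is the log2 change of estrogen against control and the y axis that of CoCl2+estrogen against CoCl2, with the line of equal change; purple marks the genes whose 2 changes differed at an adjusted p of 0.05, and 10 genes lie beyond the axes. Points follow the line (r = 0.888), and FOS, ESR1, PPP1R15A, IGFBP1 and CDKN1A lie between it and the horizontal axis, while PROS1 lies close to it.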

How the data were processed

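RNA-Seq of 12 HepG2 cultures was used, 3 in each of the control, estrogen, CoCl2 and CoCl2+estrogen groups, which were taken from the sample labels. Per the supplemental methods and the submitters' processing notes, the authors made ribosome-depleted stranded libraries, took out reads of rDNA, tRNA and mitochondrial rDNA using Bowtie2 2.2.5, aligned the remainder by STAR 2.7.8a and counted on RefSeq transcripts in Partek Flow; the notes list hg38 and mm10. Estimated counts for each gene were deposited unscaled, and 23.5% of the values in the 6 libraries compared here are not whole. Library totals of 14593865 to 20725246 counts in those libraries set the precision of low genes.

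Counts were rounded and genes were kept when any library of the comparison had more than 5. They were analysed in R 4.3.3 with TMM scaling and edgeR 4.0.16's quasi-likelihood test on the 6 libraries, without pairing, with Benjamini-Hochberg adjustment at 0.05 (limma 3.58.1 is loaded with it). Its test against a fold of 2 gave the 2-fold calls, and the 12 libraries gave the interaction. DESeq2 1.42.0, which the authors used, was an alternative, beside other scalings and filters, a replicate block, a fit of all 12 libraries and leaving out each library. Leaving out ribosomal, small noncoding and globin genes was added after seeing the data. The scripts were tested on simulated data.

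The comparison and its gene lists were chosen with earlier results of these data known, and lists were written from general knowledge. Genes were named by a rule: the study's genes, the 12 largest rises and falls past the 2-fold test, genes with a group at 3 counts or fewer, up to 4 rises and 4 falls of each list with at least 1 CPM, the 5 largest interactions each way and the 8 called genes of highest CPM each way. Other genes, such as TFF1, PGR, PROC, F5, SHBG, MKI67, MDM2 and SULT1E1, were named after their values were seen. Mitochondrial genome transcripts were on a list but 0 of 13 are in the table. A few genes the rule names are left out. Sequences and coordinates of human genes were not used here.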

Additional observations from a re-analysis of the deposited data

Results flagged for a closer look

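The difference between estrogen and control differed with CoCl2 for 967 genes by the interaction test of edgeR over the 12 libraries. These are the log2 interactions of the genes named above that passed it. A negative value stands for a rise that was smaller or gave way to a fall, or a fall that was larger, with CoCl2.

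Among signalling and immediate early genes they were -2.68 for FOS, -1.37 for EGR1, -1.35 for FOSB, -0.95 for DUSP5, -0.93 for JUN, -0.69 for AREG, -0.64 for JUND and -0.49 for DUSP6. In the stress, p53 and apoptosis groups the values were -1.75 for BBC3, -1.72 for DDIT3, -1.54 for PPP1R15A, -1.30 for STC2, -1.26 for GADD45A, -1.15 for ERN1, -1.10 for SESN2, -1.04 for CDKN1A, -1.01 for BMF and for BIRC3, -0.99 for MDM2, -0.93 for GDF15, -0.91 for PLK2, -0.85 for TRIB3, -0.71 for SLC7A11 and -0.36 for ATF4. Cytokine genes gave -1.43 for SOCS3 and -1.06 for LIF.

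The HIF1 targets VEGFA, ADM and HK2 stood at -1.12, -0.89 and -0.89, and LDHA, a fall that was smaller with CoCl2, at 0.40. HK2 changed direction, with a rise of 0.64 without CoCl2 and a log2 change of -0.27 with it (adjusted p = 0.00451 by edgeR). ESR1 was at -2.36 and TINCR at -1.93, both from few counts in control. Liver genes gave -1.53 for CYP1A1, -1.52 for IGFBP1, -1.16 for FOXA3, -0.87 for NR5A2, -0.78 for CEBPB, -0.58 for FOXA2 and -0.41 for HNF4A, and 0.55 for CAT. The fibrinolysis gene PLAUR was at -0.83, and the kinases CLK1 and CLK4 at -0.82 and -0.55.

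Falls that were smaller with CoCl2 were those of HSPA8 (0.93), SKP2 (0.80), HMOX1 (0.80), HSPA1A (0.75), HSPA1B (0.74), CCNE1 (0.72), HSPB1 (0.71), DGKK (0.69), PDIA4 (0.53) and HSPA5 (0.39). Histone genes gave -1.21 for H1-5, -0.95 for H3C6 and -0.83 for H4C3. H4C3 had a log2 change of 0.73 without CoCl2 and of -0.13 with it, which did not pass the test.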

How the results depend on the processing

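The count of called genes ranged from 10316 to 11012 over the 6 fits that left out a library, and from 10488 with DESeq2 to 11496 without the filter on low counts under the other alternatives, against 11217. For PROS1 the log2 change lay between -1.12 and -1.0 without single libraries and was -1.18 with library totals alone. The interaction count ranged from 678 to 1044 without single libraries. Among list counts in the direction more members took, those that moved by over 1.5 times were of ribosomal proteins called higher, 12 under upper-quartile scaling, 5 with library totals alone and 16 to 35 over the fits without single libraries (35 without control library C), against 23; the cause was not tested. Counts in the less frequent direction moved by over 1.5 times under some alternative in 8 of 31 lists, none of them with more than 8 such members. Genes near no change turned sign: F5 was -0.028 with library totals alone, and TFF1 was between -0.30 and 0.48 over the fits without single libraries. Past 2-fold, DESeq2 called 2125 genes against 3032.

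Deviations of same-lettered libraries correlated across 9660 genes at 0.10, -0.47 and -0.40 for letters A, B and C. Between the unlike letters B and C the values were 0.47 and 0.44. With 3 libraries per group these correlations depend on each other, so they cannot show whether the letters mark pairs. The letters were not taken as pairs, and the replicate block gave 10620 called genes, with PROS1 at -1.05. Human gene lengths and promoters were not analysed here, so that planned comparison was not run. Each group has 3 libraries, and genes with few counts, such as ESR2, allow no statement about small differences.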
